A study of Mus musculus with 4 samples.

Results

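The genes described here are 42 genes of DNA replication and S phase in embryonic mouse brain, out of 19500 genes that both deposited count tables list. They were taken by gene name from a list of the origin, helicase, polymerase, clamp, nucleotide supply and cyclin E genes. All 42 were found in both tables, and all 42 passed the filter on low counts. The study compared brains of embryos labelled Wt1CKO (called Wt1_CKO here), a conditional knockout of the zinc finger transcription factor gene Wt1, with brains of embryos labelled WT; Wt1fl/fl (called Wt1_flfl here), which carry the floxed alleles. Both groups were on a C57BL/6 background and were taken at embryonic day 13. Each genotype had 2 libraries, numbered 1 and 2. The labels name neither the Cre line, nor the part of the brain, nor whether a library came from 1 embryo or from a pool, so a p-value here reflects only how far these 4 libraries vary. Wt1 itself was not analysed here, and the genotype labels were taken as given. The study's title names progenitor proliferation as its subject, which is the question these genes bear on.

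A cell copies its DNA once per cycle. In G1 the origin recognition complex, with the loaders Cdc6 and Cdt1, places the MCM helicase ring on DNA, which is called licensing. In S phase Cdc45 and the GINS complex join the ring and turn it on, polymerase alpha with primase lays down primers, and polymerases epsilon and delta, held by the ring-shaped clamp Pcna, extend them. Many of these genes are known targets of E2F factors, which are released from the retinoblastoma protein late in G1. In the brain at this stage the dividing cells are mainly the radial glia next to the ventricle and the intermediate progenitors, while neurons do not copy their DNA.

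Promoter sequence was given for 33 of the 42 genes, each as 300 bases from 250 before to 50 after the start of transcription, from RefSeq on GRCm38.p6. The letters searched were TTTCCCGC, TTTCGCGC, TTTGCCGC and TTTGGCGC, which together are an E2F motif, on both strands. At least 1 match stood in the promoters of 15 of the 33 replication genes, or 45.5%. Among all 27025 genes with a promoter in the same table the share was 2.61%. The letters CCAAT, bound by the factor NF-Y, were in 63.6% of the replication gene promoters, against 41.1% of all. The letters TTTGAA, the cell cycle homology region of many genes of mitosis, were in 15.2%, against 20.2% of all promoters and against 11 of the 16 promoters given for a list of G2 and M phase genes. A match is a description of letters and not a site shown to be bound, and matches that overlap were each counted.

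The promoters of 5 members are shown because each holds the E2F letters, in capitals, and because 4 of them belong to the genes with the smallest unadjusted p-values among members with such a match. The fifth, Mcm5, has 2 matches that overlap on opposite strands. Each is written 5′ to 3′ on the strand of its gene, on GRCm38.p6, the minus strand at chrX:93632106-93632405 for Pola1, chr12:69228141-69228440 for Pole2 and chr1:191575495-191575794 for Dtl, and the plus strand at chr8:95633309-95633608 for Gins3 and chr8:75109259-75109558 for Mcm5.
Pola1: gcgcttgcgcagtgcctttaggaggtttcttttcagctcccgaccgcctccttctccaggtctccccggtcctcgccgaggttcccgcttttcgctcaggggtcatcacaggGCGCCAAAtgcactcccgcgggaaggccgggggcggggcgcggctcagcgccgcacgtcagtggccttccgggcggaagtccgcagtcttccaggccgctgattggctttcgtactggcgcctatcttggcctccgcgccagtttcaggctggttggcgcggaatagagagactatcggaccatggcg
Pole2: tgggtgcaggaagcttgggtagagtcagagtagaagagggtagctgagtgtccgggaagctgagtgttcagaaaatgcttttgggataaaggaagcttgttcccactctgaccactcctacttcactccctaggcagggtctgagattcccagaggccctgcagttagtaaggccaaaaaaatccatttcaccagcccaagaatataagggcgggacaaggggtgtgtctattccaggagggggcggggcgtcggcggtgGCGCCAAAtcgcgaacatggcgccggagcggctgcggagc
Dtl: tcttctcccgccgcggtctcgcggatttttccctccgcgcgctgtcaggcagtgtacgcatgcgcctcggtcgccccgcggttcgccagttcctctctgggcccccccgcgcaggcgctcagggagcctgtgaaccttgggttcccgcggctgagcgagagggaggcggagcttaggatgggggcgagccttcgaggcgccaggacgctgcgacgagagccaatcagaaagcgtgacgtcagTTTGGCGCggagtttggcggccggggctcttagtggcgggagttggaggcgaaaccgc
Gins3: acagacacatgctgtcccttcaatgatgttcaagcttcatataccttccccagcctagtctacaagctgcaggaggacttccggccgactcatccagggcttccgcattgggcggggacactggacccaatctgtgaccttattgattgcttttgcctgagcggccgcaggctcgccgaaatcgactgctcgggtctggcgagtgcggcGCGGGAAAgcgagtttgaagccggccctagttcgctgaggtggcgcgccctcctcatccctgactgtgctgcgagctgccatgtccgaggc
Mcm5: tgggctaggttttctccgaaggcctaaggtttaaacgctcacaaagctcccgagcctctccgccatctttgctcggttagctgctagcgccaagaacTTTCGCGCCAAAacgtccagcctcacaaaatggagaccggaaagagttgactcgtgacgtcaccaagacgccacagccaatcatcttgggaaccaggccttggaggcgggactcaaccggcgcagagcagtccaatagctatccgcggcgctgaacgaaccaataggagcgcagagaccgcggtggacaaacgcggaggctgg
Dtl carries its match just before the start site, Pole2 just after it, and Gins3, Pola1 and Mcm5 further upstream. Mcm6 had the most matches, 3, and Mcm3, Mcm5, Mcm7 and Rfc3 had 2 each. Cdc6, Cdt1, Lig1, Orc1, Pold1 and Pold3 held 1 each. These letters were not in the windows given for Pcna, Rfc1, Rrm1, Rrm2 and Tyms, among others. They were in 7 of 14 promoters (50%) of members with both Wt1_CKO libraries above both Wt1_flfl libraries. Among the other members they were in 8 of 19 promoters (42.1%). The difference between these shares was not tested.

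**Figure D1:**
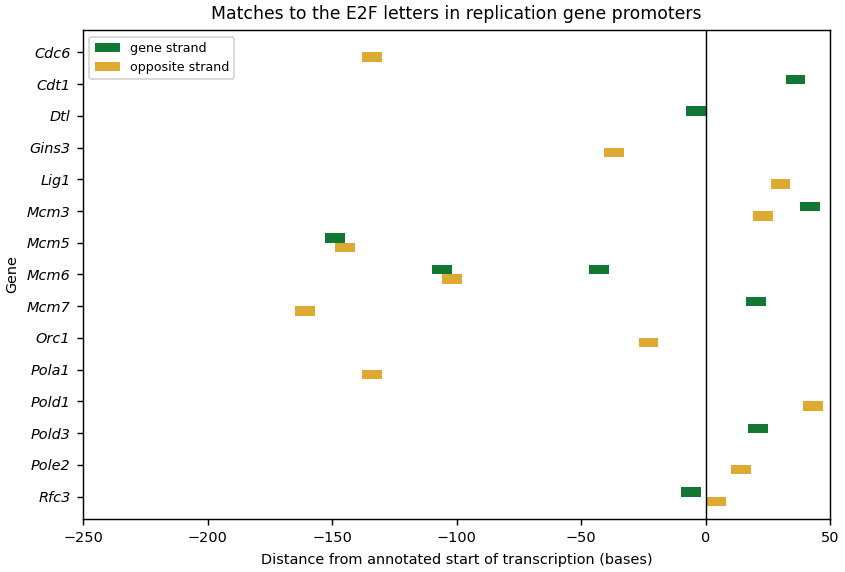
Each bar is a match to the E2F letters in the promoter of a replication gene, by distance from the annotated start of transcription in bases, from 250 before to 50 after it, with matches on the gene's strand in green and on the opposite strand in yellow. The 15 genes shown hold 1 to 3 matches each.

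The libraries held 17704698 and 17159450 counts in Wt1_CKO and 16219310 and 17170578 counts in Wt1_flfl. Replication genes gave 3911 and 4198 CPM in Wt1_CKO and 3879 and 3626 CPM in Wt1_flfl when summed, where CPM is counts scaled to a library of 1000000 after TMM normalization. Wt1_flfl replicate 1 stood apart in ribosomal RNA, with 4582 CPM of the listed total against 184 to 451 CPM in the others. Wt1_CKO replicate 1 had 4 counts of Xist, the RNA that silences one X chromosome in females, against 13086 to 16472 in the other libraries, so the libraries are not alike in sex-linked RNA. Markers of brain were abundant in all 4 libraries, with 1985 and 2052 CPM of the neuronal tubulin gene Tubb3 in Wt1_CKO and 2378 and 2205 CPM in Wt1_flfl.

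Taken per length of annotated exon, the levels of the members lay far apart. Pcna, the clamp, stood highest, with 148 CPM per kilobase in Wt1_CKO and 135 in Wt1_flfl. Next came Rrm2, the regulated subunit of ribonucleotide reductase, with 103 CPM per kilobase in Wt1_CKO and 93.5 in Wt1_flfl, and then the helicase gene Mcm7 with 79.6 and 70.5. The other 5 subunits of the MCM ring, Lig1 and Pold2 followed, between 28.4 and 46.5 CPM per kilobase in Wt1_CKO and between 31.1 and 44.4 in Wt1_flfl. At the low end were Orc1, the regulated subunit of the origin recognition complex, with 1.85 CPM per kilobase in Wt1_CKO and 1.55 in Wt1_flfl, and Dtl, Pola1 and Pole2 at 4.51 to 5.42 CPM per kilobase in Wt1_CKO and 3.72 to 3.84 in Wt1_flfl. Of 41 pairs of neighbours in this order, 35 had overlapping ranges over the 4 libraries. The exon length joins all annotated isoforms, which understates genes with long rare exons. Fen1 was lowest, at 0.580 CPM per kilobase in Wt1_CKO and 0.614 in Wt1_flfl. Of its exon bases 84.2% are shared with Tmem258 and Gm10143 on the opposite strand, and the labels do not say that strand was kept, so its value is uncertain. The same holds for Gins2, with 67.3% shared with Gse1, while the remaining members shared at most 17.4%.

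**Figure D2:**
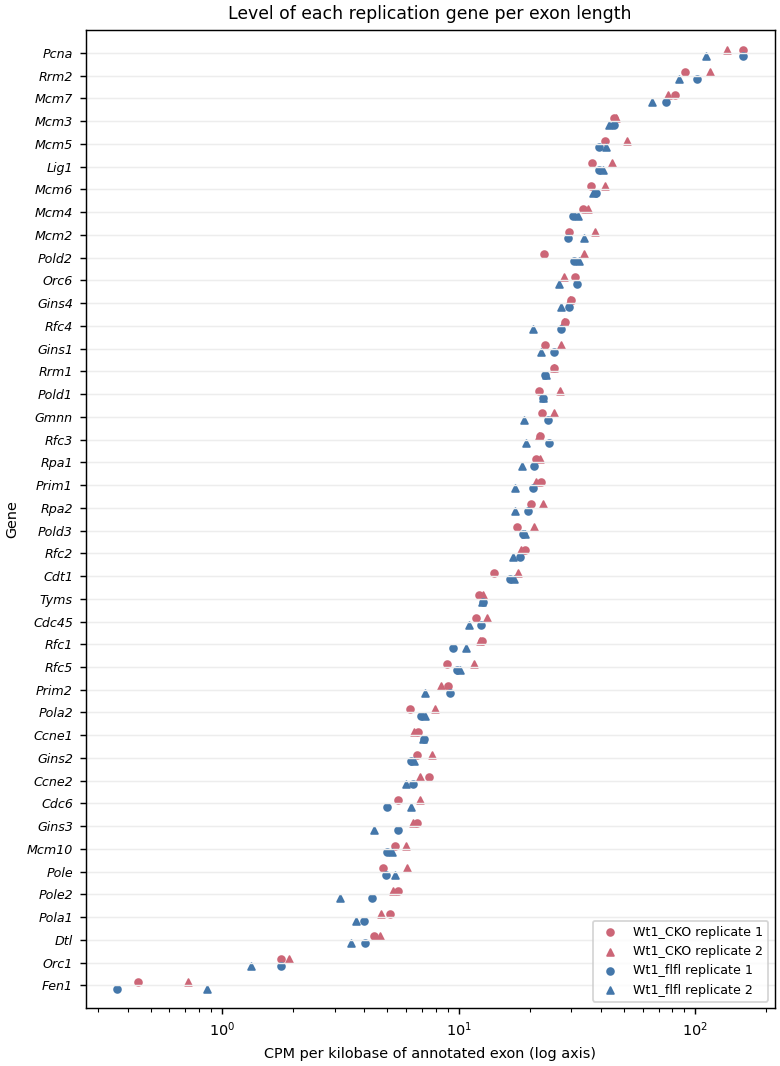
Level of each of the 42 replication genes in CPM per kilobase of annotated exon, on a log axis, with 1 point per library (Wt1_CKO red, drawn above Wt1_flfl in blue; circles replicate 1, triangles replicate 2). Pcna, Rrm2 and Mcm7 stand at the top and Orc1 and Fen1 at the bottom. The libraries of a gene lie close together compared with the whole range of levels, while 35 of 41 pairs of neighbouring genes overlap.

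Comparing Wt1_CKO with Wt1_flfl brains, the replication genes were slightly higher in Wt1_CKO as a group, and no single one passed the test. The median log2 fold change was 0.0079 between the libraries numbered 1 and 0.19 between those numbered 2. All members were read from the same libraries and can move together, so the counts below describe these libraries and are not independent repeats. Of the 42 members, 36 had a positive log2 fold change, with a median of 0.11, beside 51.8% positive and a median of 0.0066 over all 15933 genes tested. In 19 members both Wt1_CKO libraries were above both Wt1_flfl libraries, which is 45.2% of them, beside 13.4% of all genes tested. In 1 member, Ccne1, both Wt1_CKO libraries were below both Wt1_flfl libraries, beside 13.5% of all genes. Among the 10140 tested genes averaging 10 CPM or more the shares were 13.8% higher and 12.9% lower. The sizes are small, since member fold changes ran from -0.15 for Pold2 to 0.54 for Pole2 on the log2 scale.

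By edgeR's quasi-likelihood test 0 members passed a Benjamini-Hochberg adjusted p of 0.05, beside 0.00628% of all genes (1 gene), and the adjusted p was 0.99996 for every member. An unadjusted p under 0.05 was found for 3 members, Pola1, Rfc1 and Pole2, all higher, beside 0.596% of all genes higher and 0.967% lower. DESeq2 called 0 members, with 0 under an unadjusted 0.05, and limma-voom called 0, with 3. For a single value, 2 libraries against 2 cannot give a two-sided exact permutation p below 0.333. In bulk tissue a larger share of dividing cells and more of a transcript per cell cannot be told apart, and likewise fewer cells and less per cell where a gene was lower.

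The difference was larger between the libraries numbered 2. Between Wt1_CKO replicate 2 and Wt1_flfl replicate 2 (pair 2), 40 of 42 members were higher in Wt1_CKO, with a median log2 fold change of 0.19, beside 49.7% of all genes. Between Wt1_CKO replicate 1 and Wt1_flfl replicate 1 (pair 1), 23 of 42 were higher, with a median of 0.0079, beside 51.5% of all genes. In both pairs 22 members were higher, beside 27.0% of all genes, and 1 was lower, beside 25.9%. Wt1_CKO replicate 2 was the highest library for 25 members, and Wt1_flfl replicate 2 was the lowest for 22. The distance between replicates of one genotype was of the same order. The median member stood 0.096 higher in Wt1_CKO replicate 2 than in Wt1_CKO replicate 1, and differed by -0.085 in Wt1_flfl replicate 2 from Wt1_flfl replicate 1, on the log2 scale. No label links same-numbered libraries, and the difference between the pairs was not tested, as 1 library per group leaves no spread. Pair 1 also sets the library almost without Xist, Wt1_CKO replicate 1, against the library rich in ribosomal RNA, Wt1_flfl replicate 1. These differences cannot be told apart from that between the pairs.

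**Figure D3:**
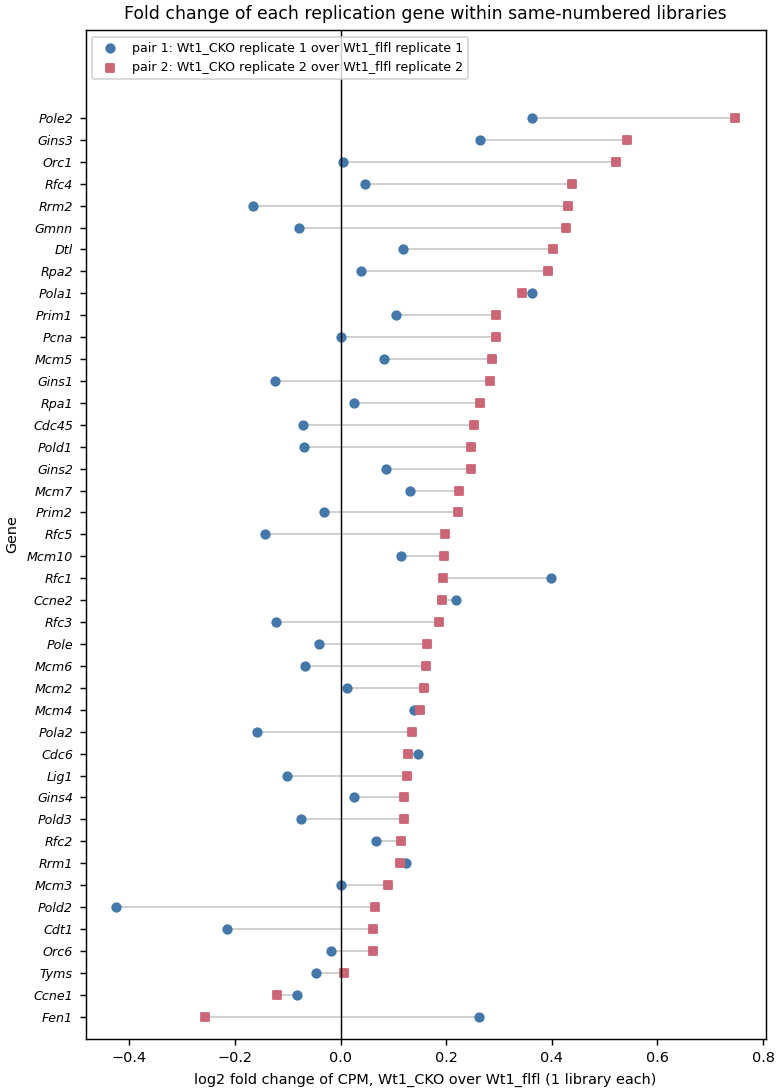
Log2 fold change of CPM of each replication gene, Wt1_CKO over Wt1_flfl, for the libraries numbered 1 (blue circles) and numbered 2 (red squares), with genes ordered by the second. In pair 2, 40 of 42 squares lie above 0, while 23 of 42 circles do.

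The summed level showed the same. It averaged 4054 ± 203 CPM in Wt1_CKO and 3753 ± 179 CPM in Wt1_flfl (SD, n = 2 each), a log2 ratio of 0.11, with 0.012 in pair 1 and 0.21 in pair 2. Without Wt1_CKO replicate 2 or without Wt1_flfl replicate 2 that ratio was 0.060 and 0.064, and the median fold change of the members was 0.070 and 0.057. Without Wt1_CKO replicate 1 it was 0.16 with a median of 0.18, and without Wt1_flfl replicate 1, the library rich in ribosomal RNA, 0.16 with a median of 0.15. Without Wt1_CKO replicate 1, 35 members were higher without overlap, beside 29.8% of all genes. Without Wt1_CKO replicate 2, 19 members (45.2%) were higher without overlap, beside 34.2% of all genes, and 11 (26.2%) were lower, beside 32.2%.

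**Figure D4:**
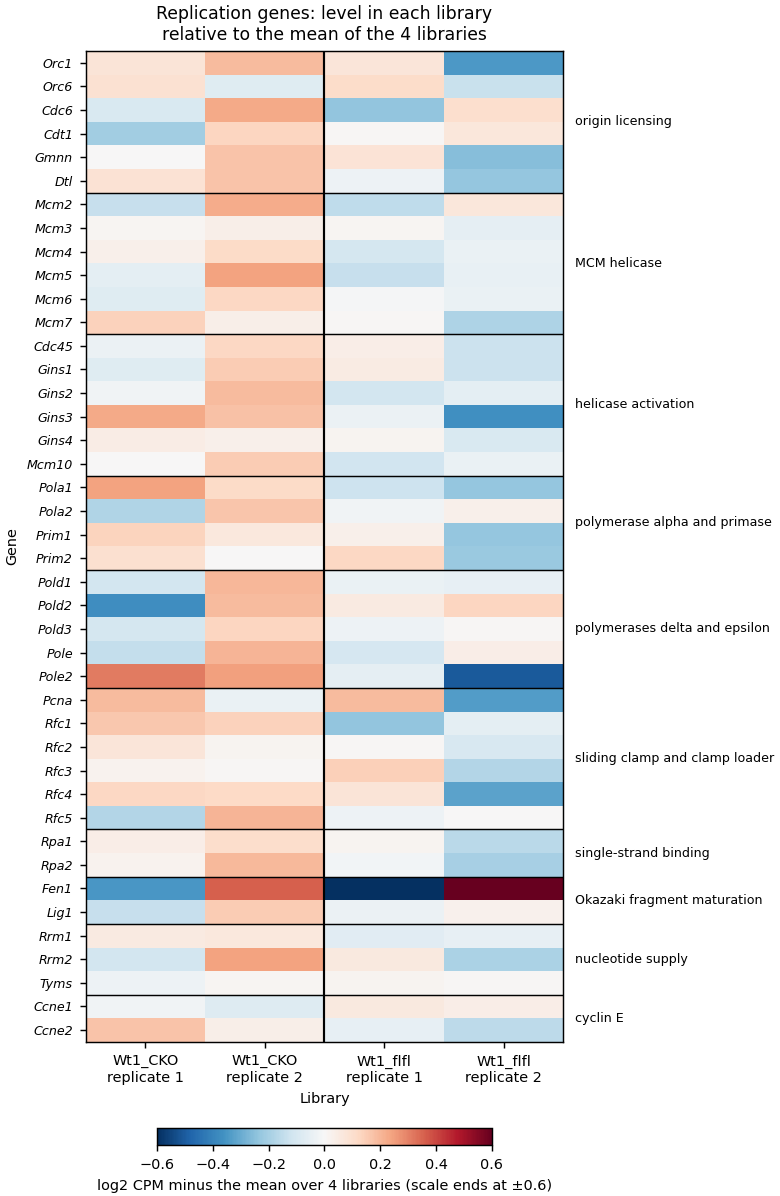
Log2 CPM of each of the 42 replication genes in each library, minus that gene's mean over the 4 libraries, with genes grouped by role and Wt1_CKO columns left of Wt1_flfl columns; the colour scale ends at 0.6 in each direction, which Fen1 exceeds. Wt1_CKO replicate 2 is the reddest column and Wt1_flfl replicate 2 the bluest.

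Origin licensing genes load the helicase or limit its loading. Of 6 members 5 had a positive fold change. Orc1 and Dtl, 2 of the 6 (33.3%), were higher in Wt1_CKO without overlap, beside 13.4% of all genes tested. Dtl, the substrate receptor of the ubiquitin ligase that destroys Cdt1 in S phase, had 60.0 and 63.6 CPM in Wt1_CKO libraries 1 and 2, against 55.3 and 48.1 CPM in Wt1_flfl libraries 1 and 2. Both Wt1_CKO libraries were above both Wt1_flfl libraries, with a log2 fold change of 0.26 (SE 0.109). It was 0.12 by pair 1 and 0.40 by pair 2, and 0.16 without Wt1_flfl replicate 2. Gmnn encodes geminin, which binds Cdt1 and blocks a further round of loading. It had 33.1 and 37.1 CPM in Wt1_CKO and 34.9 and 27.6 CPM in Wt1_flfl, so the groups overlapped, lower in Wt1_CKO by pair 1 (log2 -0.080) and higher by pair 2 (0.43). Orc6, a subunit of the origin recognition complex, was the most abundant of the group by CPM, with 77.0 and 68.6 CPM in Wt1_CKO and 78.0 and 65.8 CPM in Wt1_flfl. Its libraries sorted by number rather than by genotype. Cdc6 also sorted by number, with 28.9 and 36.1 CPM in Wt1_CKO and 26.2 and 33.0 CPM in Wt1_flfl. Cdt1 was the one licensing gene with a negative mean fold change, -0.068, and its groups overlapped. Orc1 had 110 and 115 counts in Wt1_CKO and 99 and 79 counts in Wt1_flfl, few enough that counting error is a large part of its spread.

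The MCM ring is the helicase that opens the double strand. All 6 subunits had a positive fold change, between 0.045 and 0.19. Of these, 3 (50%) were higher in Wt1_CKO without overlap, beside 13.4% of all genes tested. Mcm7 had 365 and 340 CPM in Wt1_CKO and 333 and 291 CPM in Wt1_flfl, with a log2 fold change of 0.18 (SE 0.111). Part of Mcm7, 12.6% of its exon bases, is shared with other genes, mainly Ap4m1 and Cops6 on the opposite strand and the microRNA genes it hosts. Mcm4 had 120 and 127 CPM in Wt1_CKO and 109 and 114 CPM in Wt1_flfl, a difference beyond the distance between replicates of either genotype. In Mcm3, the third without overlap, the gap was narrow, at 171 and 173 CPM in Wt1_CKO and 170 and 163 CPM in Wt1_flfl. Mcm5 had 167 and 205 CPM in Wt1_CKO and 157 and 168 CPM in Wt1_flfl, with Wt1_CKO replicate 1 just below Wt1_flfl replicate 2. The level of Mcm2 was 204 and 262 CPM in Wt1_CKO and 202 and 235 CPM in Wt1_flfl, higher in the libraries numbered 2 of both genotypes. Mcm6 lay between 169 and 194 CPM in Wt1_CKO and between 173 and 177 CPM in Wt1_flfl.

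Helicase activation needs Cdc45, the 4 GINS subunits and Mcm10. All 6 genes had a positive fold change and 4 (66.7%) were higher in Wt1_CKO without overlap, beside 13.4% of all genes tested. Gins3 had 321 and 300 counts in Wt1_CKO and 241 and 204 counts in Wt1_flfl, or 18.04 and 17.42 CPM in Wt1_CKO against 15.01 and 11.92 CPM in Wt1_flfl. Its fold change of 0.40 (SE 0.166) was the second largest among the members. It was 0.26 by pair 1 and 0.54 by pair 2, and 0.24 without Wt1_flfl replicate 2. Mcm10, a scaffold that joins helicase and polymerase alpha, had 41.4 and 46.1 CPM in Wt1_CKO and 38.2 and 40.2 CPM in Wt1_flfl. For Cdc45 the values were 41.4 and 46.2 CPM in Wt1_CKO and 43.5 and 38.8 CPM in Wt1_flfl, which overlap. The GINS subunits act as one complex, yet their fold changes spread from 0.072 for Gins4 and 0.081 for Gins1 to 0.17 for Gins2 and 0.40 for Gins3. The difference between subunits was not tested.

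Polymerase alpha and primase start each new strand. Pola1, the catalytic subunit of polymerase alpha, had the smallest unadjusted p of the members, with 802 and 712 counts in Wt1_CKO and 563 and 557 counts in Wt1_flfl. In CPM these were 45.1 and 41.3 in Wt1_CKO against 35.1 and 32.6 in Wt1_flfl, with both Wt1_CKO libraries above both Wt1_flfl libraries. The log2 fold change was 0.35 (SE 0.0819), 0.36 by pair 1 and 0.34 by pair 2, with an unadjusted edgeR p of 0.0277 and an adjusted p of 0.99996. Pola1 is the one member on chromosome X (93304767 to 93632155, GRCm38). The 2 Wt1_CKO libraries differ in Xist, with 4 and 16472 counts. Between them Pola1 differed by -0.12 on the log2 scale (replicate 2 minus replicate 1), and between the 2 Wt1_flfl libraries by -0.11. Whether the difference in Xist bears on the level of Pola1 was not tested. Pola2, the other polymerase alpha subunit, had 51.7 and 65.7 CPM in Wt1_CKO and 57.7 and 59.8 CPM in Wt1_flfl, with a fold change of -0.0016 (SE 0.175) that was 0.014 when scaled by library totals alone. The primase subunit Prim1 had 86.2 and 82.1 CPM in Wt1_CKO and 80.2 and 66.9 CPM in Wt1_flfl. Its groups did not overlap, while those of its partner Prim2 did, at 53.4 and 50.1 CPM in Wt1_CKO and 54.6 and 42.9 CPM in Wt1_flfl.

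Polymerase epsilon extends the leading and polymerase delta the lagging strand. Pole2, the second subunit of polymerase epsilon, had the largest fold change of all members. It had 284 and 263 counts in Wt1_CKO and 199 and 155 counts in Wt1_flfl, or 15.96 and 15.27 CPM in Wt1_CKO against 12.39 and 9.06 CPM in Wt1_flfl. Both Wt1_CKO libraries were above both Wt1_flfl libraries, with a fold change of 0.54 (SE 0.226), an unadjusted edgeR p of 0.0409 and an adjusted p of 0.99996. For Pole2 it was 0.36 by pair 1 and 0.75 by pair 2, and 0.33 without Wt1_flfl replicate 2. Its catalytic partner Pole overlapped, at 53.3 and 67.6 CPM in Wt1_CKO and 54.9 and 60.4 CPM in Wt1_flfl. Pold1, the catalytic subunit of polymerase delta, had 106 and 131 CPM in Wt1_CKO and 111 and 110 CPM in Wt1_flfl. Pold2 ran the other way, with 43.4 and 64.1 CPM in Wt1_CKO and 58.3 and 61.3 CPM in Wt1_flfl, or -0.42 by pair 1 and 0.064 by pair 2 on the log2 scale. Here 1 library, Wt1_CKO replicate 1, stood below the rest, and without it the fold change of Pold2 was 0.10. Pold3 had a fold change of 0.027. In the group of 5 genes, 1 was higher in pair 1 and all 5 in pair 2.

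The clamp Pcna is opened and placed on DNA by the 5 subunits of replication factor C. Pcna had 383 and 326 CPM in Wt1_CKO and 383 and 266 CPM in Wt1_flfl. The libraries numbered 1 were equal, both libraries numbered 2 were lower, and Wt1_flfl replicate 2 was the lowest. Its fold change of 0.13 (SE 0.286) turned to -0.11 without Wt1_flfl replicate 2. A copy, Pcna-ps2 on chromosome 19, had 671 and 1474 counts in Wt1_CKO and 721 and 1126 counts in Wt1_flfl, so some reads of the one may have been counted for the other. Rfc1, the large subunit of the loader, had 75.5 and 74.3 CPM in Wt1_CKO and 57.3 and 64.9 CPM in Wt1_flfl. All Wt1_CKO values were above all Wt1_flfl values, with a fold change of 0.29 (SE 0.0909), 0.40 by pair 1 and 0.19 by pair 2, and an unadjusted edgeR p of 0.0385 with an adjusted p of 0.99996. Rfc4 had 43.0 and 43.0 CPM in Wt1_CKO and 41.7 and 31.7 CPM in Wt1_flfl. Rfc2 was also without overlap, with a fold change of 0.090, and Rfc3 and Rfc5 overlapped, with fold changes of 0.023 and 0.039.

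Replication protein A coats single-stranded DNA. Both subunits measured here were higher in Wt1_CKO without overlap, beside 13.4% of all genes tested. Rpa1 had 118 and 124 CPM in Wt1_CKO and 116 and 103 CPM in Wt1_flfl. Rpa2 had 60.5 and 68.2 CPM in Wt1_CKO and 58.9 and 51.9 CPM in Wt1_flfl, with a fold change of 0.22 (SE 0.125). Okazaki fragments are trimmed by Fen1 and sealed by Lig1. Lig1 had 156 and 190 CPM in Wt1_CKO and 167 and 175 CPM in Wt1_flfl, so that the Wt1_CKO libraries lay on either side of the Wt1_flfl libraries. Fen1 had 19 and 30 counts in Wt1_CKO and 14 and 36 counts in Wt1_flfl, with the fold change of the 2 pairs in opposite directions.

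Nucleotide supply was represented by both ribonucleotide reductase subunits and thymidylate synthase. Rrm1, the large subunit, had 278 and 280 CPM in Wt1_CKO and 255 and 259 CPM in Wt1_flfl. That is a small difference, 0.12 on the log2 scale (SE 0.0120), with 0.12 and 0.11 in the pairs, and the replicates were close. The unadjusted edgeR p was 0.295, since that test moves each gene's spread towards that of genes of similar level, and the adjusted p was 0.99996. Its partner Rrm2, whose protein is limited to S phase, had 251 and 319 CPM in Wt1_CKO and 281 and 237 CPM in Wt1_flfl. Of all members with opposite signs in the pairs it had the widest gap, with -0.17 in pair 1 and 0.43 in pair 2. Tyms was nearly level, with 74.5 and 76.9 CPM in Wt1_CKO and 77.0 and 76.5 CPM in Wt1_flfl.

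The E cyclins start S phase with Cdk2, and the 2 genes differed in sign. Ccne1 had 17.99 and 17.31 CPM in Wt1_CKO and 19.06 and 18.82 CPM in Wt1_flfl, both Wt1_CKO libraries being lower, with a fold change of -0.10 (SE 0.0291). Ccne2 had 26.3 and 23.9 CPM in Wt1_CKO and 22.5 and 20.9 CPM in Wt1_flfl, both Wt1_CKO libraries being higher, with a fold change of 0.21 (SE 0.0854). Each difference exceeded the distance between replicates of either genotype. That was so for 11 of the 42 members, 10 higher and 1 lower, beside 17.4% of all genes in either direction, and the 11 were Dtl, Mcm4, Gins3, Mcm10, Pola1, Pole2, Rfc1, Rpa2, Rrm1, Ccne1 and Ccne2. The SE of 2 against 2 libraries is itself imprecise, and edgeR's test moves each gene's spread towards that of other genes of similar level.

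The authors' deposited tables give tests of 1 library against 1 library, which compare libraries and not genotypes. In the authors' deposited table for pair 1, 8 members had an adjusted p under 0.05 and were higher in Wt1_CKO, beside 13.8% of all genes, and 3 were lower, beside 9.5%. Those 3 were Cdt1, Pold2 and Rrm2. The authors' deposited table for pair 2 has 32 members higher at that threshold, beside 10.2% of all genes, and 0 lower, beside 9.01%. Its smallest adjusted p among members was 1.45e-47, for Rrm2, with a log2 fold change of 0.44, while the authors' deposited table for pair 1 gives Rrm2 a log2 fold change of -0.14. Neither of the authors' deposited tables marks a member as significant, a mark that 3.2% of the genes in the first and 3.19% in the second carry.

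Other replisome and origin genes, listed apart from the members, leaned the same way. The further lists here and below were read from the same libraries. They were chosen with earlier results of these data known, so they are not separate evidence. Of 32 further replisome and origin genes 0 passed edgeR's adjusted threshold, with 2 under an unadjusted 0.05, all 32 had a positive fold change and 13 (40.6%) did not overlap, all higher in Wt1_CKO, with a median of 0.13, beside 51.8% positive and 13.4% higher without overlap among all genes tested. The 2 were Atad5, which unloads the clamp, with 53.2 and 47.0 CPM in Wt1_CKO and 36.5 and 41.3 CPM in Wt1_flfl, and Clspn, an adaptor of the checkpoint kinase Chek1, with 64.8 and 71.7 CPM in Wt1_CKO and 53.6 and 57.6 CPM in Wt1_flfl. In this list the lean was in both pairs, with 24 and 30 of 32 genes higher and medians of 0.12 and 0.18. Recql4, a helicase of origin firing, had a fold change of 0.36 (SE 0.163) and Wdhd1, which ties polymerase alpha to the helicase, one of 0.19 (SE 0.0263).

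Of 18 further nucleotide supply genes 8 (44.4%) were without overlap and higher, beside 13.4% of all genes, and 0 lower, beside 13.5%, with a median of 0.12. Paics, of purine synthesis, had 322 and 315 CPM in Wt1_CKO and 292 and 274 CPM in Wt1_flfl, and Shmt1 and Ctps were also higher without overlap. Of 15 chromatin genes tied to replication 4 (26.7%) were without overlap and higher and 1 (6.67%) lower, beside the same shares of all genes. The chromatin remodeller gene Hells had 104 and 93.5 CPM in Wt1_CKO and 84.3 and 82.9 CPM in Wt1_flfl, and Nasp, a histone chaperone gene, 556 and 527 CPM in Wt1_CKO and 499 and 463 CPM in Wt1_flfl. Of 9 replication checkpoint genes 3 (33.3%) were higher without overlap, Chek1, Atr and Rad1, and 1 (11.1%) was lower, again beside 13.4% and 13.5% of all genes. Unlike the members, 6 of these 9 were higher in pair 1 and 4 in pair 2, with medians of 0.30 and -0.0035. Pairs 1 and 2 had 12 and 16 of the 18 nucleotide supply genes higher, and 7 and 13 of the 15 chromatin genes. The shares of all genes higher were 51.5% in pair 1 and 49.7% in pair 2. edgeR called 0 genes in each of these 3 lists, with 0 under an unadjusted 0.05.

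The genes that drive the G1 to S transition gave smaller shares. Of 21 E2F, RB and S phase kinase genes 5 (23.8%) were without overlap and higher, beside 13.4% of all genes, and 2 (9.52%) lower, beside 13.5%, with a median of 0.055. edgeR called 0, with 2 under an unadjusted 0.05. In pair 1, 14 of the 21 were higher, beside 51.5% of all genes, and in pair 2, 12, beside 49.7%. Skp2, which marks the inhibitor p27 for destruction, had 97.3 and 102 CPM in Wt1_CKO and 84.1 and 82.5 CPM in Wt1_flfl. Cdkn1c, which encodes the inhibitor p57, had 53.7 and 53.6 CPM in Wt1_CKO and 59.6 and 101 CPM in Wt1_flfl, where 1 library, Wt1_flfl replicate 2, was far above the rest. E2f3 and Cdk2 were higher without overlap, with fold changes of 0.27 and 0.19.

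G2 and M phase genes, which serve the next stage of the cycle, gave shares like those of the members. Of 18 genes 9 (50%) were higher without overlap, beside 13.4% of all genes, and 0 lower, beside 13.5%, with a median of 0.12, and edgeR called 0, with 1 under an unadjusted 0.05. Mki67, a general marker of cycling cells, had 459 and 382 CPM in Wt1_CKO and 371 and 356 CPM in Wt1_flfl. Cenpf, a kinetochore gene, had 154 and 137 CPM in Wt1_CKO and 125 and 121 CPM in Wt1_flfl. As with the members, pair 2 had more genes higher, 18 of 18, than pair 1, with 11 of 18.

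**Figure D5:**
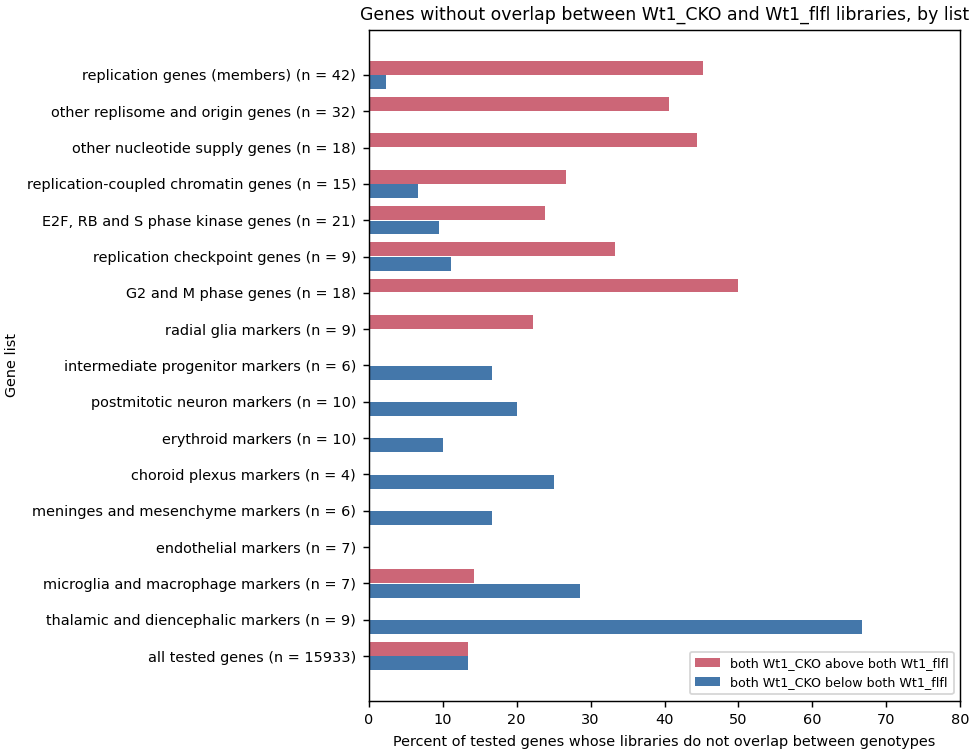
Percent of tested genes in each list whose 2 Wt1_CKO libraries are both above (red) or both below (blue) the 2 Wt1_flfl libraries, with the number tested in brackets and all 15933 tested genes at the bottom. The replication genes reach 45.2% above and 2.38% below, against 13.4% and 13.5% of all genes.

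Markers of the cells and regions that a dissected brain holds differed between libraries too. The counts of markers without overlap stand beside 13.4% higher and 13.5% lower in Wt1_CKO among all genes tested. Of 9 radial glia markers 2 were higher without overlap, Prom1 and Pax6, and 0 lower. Fold changes were positive for 7 of the 9 and negative for 2, Sox2 (-0.16) and Hes1 (-0.11). The 9 summed to 2632 and 3019 CPM in Wt1_CKO and 2630 and 2866 CPM in Wt1_flfl. The 6 intermediate progenitor markers summed to 770 and 709 CPM in Wt1_CKO and 753 and 661 CPM in Wt1_flfl, with 0 higher without overlap and 1 lower, Insm1. Fold changes were positive for 4 of the 6, among them Eomes (0.26), Neurog1 (0.13) and Neurog2 (0.11), and negative for 2, with Insm1 at -0.14. The 10 postmitotic neuron markers summed to 6509 and 5544 CPM in Wt1_CKO and 6684 and 5830 CPM in Wt1_flfl, with 0 higher and 2 lower without overlap, one of them Tubb3. Fold changes were positive for 5 of the 10, with Neurod6 at 0.31, and negative for 5, with Tubb3 at -0.18. Of 9 thalamic and diencephalic markers 0 passed edgeR's adjusted threshold, 6 had an unadjusted p under 0.05, and 6 were lower in both Wt1_CKO libraries, among them Olig3 with 1.18 and 1.05 CPM in Wt1_CKO and 11.3 and 9.18 CPM in Wt1_flfl. Ttr, a choroid plexus gene, had 40.3 and 0.987 CPM in Wt1_CKO and 0.249 and 12.4 CPM in Wt1_flfl, and the embryonic globin gene Hbb-y 360 and 974 CPM in Wt1_CKO and 423 and 849 CPM in Wt1_flfl. In the lists of other tissues, higher and lower genes without overlap were 1 and 2 of 7 for microglia and macrophages, 0 and 1 of 4 for choroid plexus, 0 and 1 of 6 for meninges and mesenchyme, 0 and 1 of 10 for erythroid cells, and 0 and 0 of 7 for endothelium. Beside them stand the same 13.4% and 13.5% of all genes. The lower meningeal gene, the collagen gene Col1a1, had 5.28 and 4.70 CPM in Wt1_CKO and 8.90 and 12.8 CPM in Wt1_flfl, with a log2 fold change of -1.12, an unadjusted edgeR p of 0.00407 and an adjusted p of 0.99996. Of the 6 meningeal genes tested, 4 had a negative fold change and 2 a positive one. The summed levels were 915 and 1807 CPM in Wt1_CKO and 973 and 1861 CPM in Wt1_flfl for erythroid genes, and 33.2 and 30.3 CPM in Wt1_CKO and 33.0 and 59.0 CPM in Wt1_flfl for genes of meninges and mesenchyme. For the choroid plexus they were 60.2 and 26.2 CPM in Wt1_CKO and 23.6 and 48.7 CPM in Wt1_flfl, over the 4 of 7 markers tested. Endothelial genes summed to 115 and 124 CPM in Wt1_CKO and 122 and 139 CPM in Wt1_flfl, and microglia and macrophage genes to 32.0 and 30.9 CPM in Wt1_CKO and 32.1 and 31.3 CPM in Wt1_flfl. The part of these differences in the levels of the replication genes was not tested.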

How the data were processed

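Poly(A) RNA was sequenced, per the labels' protocols, after oligo(dT) enrichment and random priming. The submitters' processing notes list Bowtie2 2.2.3, TopHat2 2.0.12, HTSeq 0.6.0 and mm9. Of 19462 gene IDs found in GENCODE vM21 (GRCm38), 17806 (91.5%) had the same position, among them 41 of the 42 members, so positions are given on GRCm38. Per the file headers, the authors deposited raw counts, a normalized CPM value, a fold ratio, its log2 value, and p-values with adjusted p-values, in 1 table per pair of same-numbered libraries. The test behind those p-values is not given in the sources used here.

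Counts of the 19500 genes in both tables were analysed with edgeR 4.0.16 in R 4.3.3: filterByExpr with a minimum count of 10, TMM scaling, and a quasi-likelihood F test with genotype as the only term, adjusted by Benjamini-Hochberg over 15933 genes. Pair fold changes use log2 CPM (prior count 2), and SEs come from the SDs of that scale. On simulated counts of 15646 genes, the test recovered 56.6% of the 99 genes given a log2 change of 1 and 92% of the 100 given 2. Member fold changes reached at most 0.54, and no change that small was simulated, so recovery at that size is not known. Alternatives were a replicate block, each library left out, other scalings and filters, DESeq2 1.42.0 and limma 3.58.1 (voom). Reads are not independent molecules, so counting error is a lower limit.

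Per-library values are printed for the 2 members of each role with the smallest p and the most abundant, plus Pcna, Pola1, Mcm2, Ccne1 and Ccne2, and the 4 members of opposite sign in the pairs with the widest gap. Of each further list up to 4 genes by p are named, and Mki67, Olig3, Ttr and Hbb-y. A gene that this rule names is not reported here. Members named beyond that, Cdc6, Orc1, Mcm3, Mcm4, Mcm6, Pola2, Prim2, Pole and Tyms with values, were chosen after their values were seen. Members and lists were chosen with earlier results of these data known.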

Additional observations from a re-analysis of the deposited data

How the results depend on the processing

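No member passed under any alternative run, and the smallest adjusted p of a member over them was 0.345, with the replicate block. Same-numbered libraries share only a number in the labels. Their deviations from the genotype means had a correlation of 0.28 over the 15933 genes tested, and of 0.40 over the 10140 averaging 10 CPM or more. With the replicate block edgeR called 42 genes against 1 without it, and the median of the members was 0.11 either way. DESeq2 called 5 genes. Leaving out each library in turn gave 3 to 73 called genes, 19 to 35 members higher without overlap, 1 to 11 lower without overlap, a median of 0.057 to 0.18 and a log2 ratio of summed levels of 0.060 to 0.16. A lone library there is assumed to vary like the others, and with 3 libraries the groups overlap less often by construction. Of all genes tested 29.8% were higher without overlap without Wt1_CKO replicate 1, where 35 members (83.3%) were. Without Wt1_CKO replicate 2, 34.2% of all genes and 19 members (45.2%) were higher, and 32.2% of all genes and 11 members (26.2%) were lower.

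Over the 42 members, 477 of 504 alternatives kept the sign and, where a test was run, the side of the threshold, and 27 turned the sign. The 504 include the sum of Pcna with Pcna-ps2 given below, which has a sign but no test. Fen1 did not pass the stricter filter and has no value there. One of the 27, Pola2 at 0.014 with library totals only, left out no library. With a library left out, fold changes ran from -0.099 to 0.15 for Orc6, -0.031 to 0.31 for Cdc6, -0.25 to 0.091 for Cdt1, -0.10 to 0.26 for Mcm2, -0.050 to 0.15 for Mcm6, -0.037 to 0.19 for Gins1, -0.18 to 0.16 for Pola2, -0.076 to 0.27 for Prim2, -0.064 to 0.24 for Pold1, -0.46 to 0.10 for Pold2, -0.094 to 0.14 for Pold3, -0.11 to 0.23 for Pole, -0.11 to 0.42 for Pcna, -0.13 to 0.19 for Rfc3, -0.16 to 0.22 for Rfc5, -0.58 to 0.68 for Fen1, -0.13 to 0.16 for Lig1, -0.046 to 0.30 for Rrm2 and -0.041 to 0.0025 for Tyms. Genes of the other lists were not recomputed. The cause was not tested. The following were chosen after seeing the data. Leaving out the 8 members with over 10% of exon bases shared gave 13 of 34 (38.2%) higher without overlap, beside 13.4% of all genes, and a median of 0.095. Of these 34, 16 (47.1%) were higher in pair 1, with a median of -0.0094, beside 51.5% of all genes. In pair 2, 33 (97.1%) were higher, with a median of 0.19, beside 49.7%. Leaving out Fen1 and Orc1 gave 18 of 40 (45%) higher without overlap. Pcna summed with Pcna-ps2 gave a log2 ratio of 0.13. Depth limits Fen1 and Orc1 most.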
